A study of Mus musculus with 8 samples.

Results

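Expression of 8 genes of the ERK1/2 and ERK5 kinase cascades was followed in cultured mouse astrocytes with reduced GSTM1. They are Mapk7 (ERK5), its activating kinase Map2k5 (MEK5), Mapk3 (ERK1), the ERK1/2-activating kinases Map2k1 (MEK1) and Map2k2 (MEK2), and the transcription factor genes Mef2a, Mef2c and Mef2d, out of 54146 genes listed. They were taken by gene symbol, and Mapk7 was chosen on measured values, namely because it was lower in GSTM1 knockdown (KD) than in control KD both with and without TNF-α. Its difference between GSTM1 KD and control KD is therefore given as a description with no test. The cells were primary glia from cortices of neonatal C57BL/6 mice. In mixed culture they were infected with lentivirus carrying either short hairpin RNA (shRNA) that targets Gstm1 or non-silencing shRNA. The sources do not state how many Gstm1 hairpins were used. The infected cells were selected with puromycin and depleted of CD11b-positive microglia. All 4 groups therefore carried a lentiviral shRNA and underwent the same selection. Both knockdowns were studied without stimulation (the basal level) and after a 6 h exposure to 50 ng/ml TNF-α. Each of the 4 groups had 2 biological replicates, which gave 8 RNA-seq libraries. Each flask pooled the brains of more than 1 pup, and the hairpin could act in any infected cell type of the culture.

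In both cascades a MAP kinase kinase phosphorylates and activates a MAP kinase. MEK1 and MEK2 activate ERK1/2 downstream of RAS and RAF proteins, a route that growth factors use and that drives proliferation and differentiation of glia. MEK5 is the dedicated activator of ERK5, a large kinase with a long C-terminal tail, and ERK5 phosphorylates MEF2 transcription factors and is known for roles in neuronal survival and in the vasculature. Messenger RNA levels do not show how active these kinases are, since activity is set by phosphorylation.

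The expected counts of a library summed to between 17349682 and 34434615, and all 8 members had more than 3 counts in every library. Counts of the target Gstm1 were 8153 and 9644 in the control KD libraries but 676 and 626 in the GSTM1 KD libraries without TNF-α, and 4851 and 6492 but 527 and 405 with TNF-α, so no library went against its label. All 10 astrocyte markers, Gfap among them, had more than 3 counts in at least 1 library, although their summed level differed between replicates of 1 group (1793 and 4129 TPM in control KD without TNF-α). Microglia markers summed to at most 7 TPM, whereas markers of mural cells and fibroblasts, Acta2 above all, summed to between 1620 and 4007 TPM. Of the latter, Myh11, Lum, Rgs5 and Dcn were each at 2.4 TPM or less in every library, and Col1a1 was at 20.7 to 64.4 TPM. Levels are given as TPM (transcript abundance scaled by transcript length and library total), which allows genes to be compared. Differences are log2 fold changes of counts by edgeR's quasi-likelihood test, and an adjusted p below 0.05 is called past the threshold. The p-values measure the spread between the 2 cultures of a group, and in bulk RNA fewer cells expressing a gene cannot be told apart from less RNA per cell.

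Mapk7 encodes ERK5. The gene lies on chr11:61488812-61494406 (GRCm38, minus strand). At the basal level Mapk7 stood at 39.5 and 39.3 TPM in the 2 control KD libraries and at 12.6 and 12.9 TPM in the 2 GSTM1 KD libraries. After TNF-α it stood at 36.4 and 39.3 TPM in control KD and at 11.2 and 12.2 TPM in GSTM1 KD. Every GSTM1 KD library was thus below every control KD library, and the replicates of a group lay close together. These values rested on 280 to 410 counts in a GSTM1 KD library and 953 to 1937 in a control KD library. On the log2 scale Mapk7 was lower by 1.62 ± 0.114 (SE, n = 2 per group) without TNF-α, a 3.07-fold difference, and by 1.80 ± 0.111 after TNF-α, a 3.49-fold difference. Among all genes, 5.62% of 14899 tested were past the threshold and lower in GSTM1 KD without TNF-α and 8.92% of 14593 after TNF-α. Exons of Mapk7 share 89 bases with an exon of Mfap4 on the opposite strand, and the sources do not say if reads were counted by strand. Mfap4, which encodes an extracellular matrix protein, had at most 182 counts in a library and had log2 fold changes of 1.32 ± 0.361 without TNF-α (edgeR, adjusted p = 0.0739; DESeq2, 0.0158) and 1.32 ± 0.370 after TNF-α (edgeR, adjusted p = 0.0654; DESeq2, 0.0426), past the threshold by DESeq2 and not by edgeR.

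**Figure D1:**
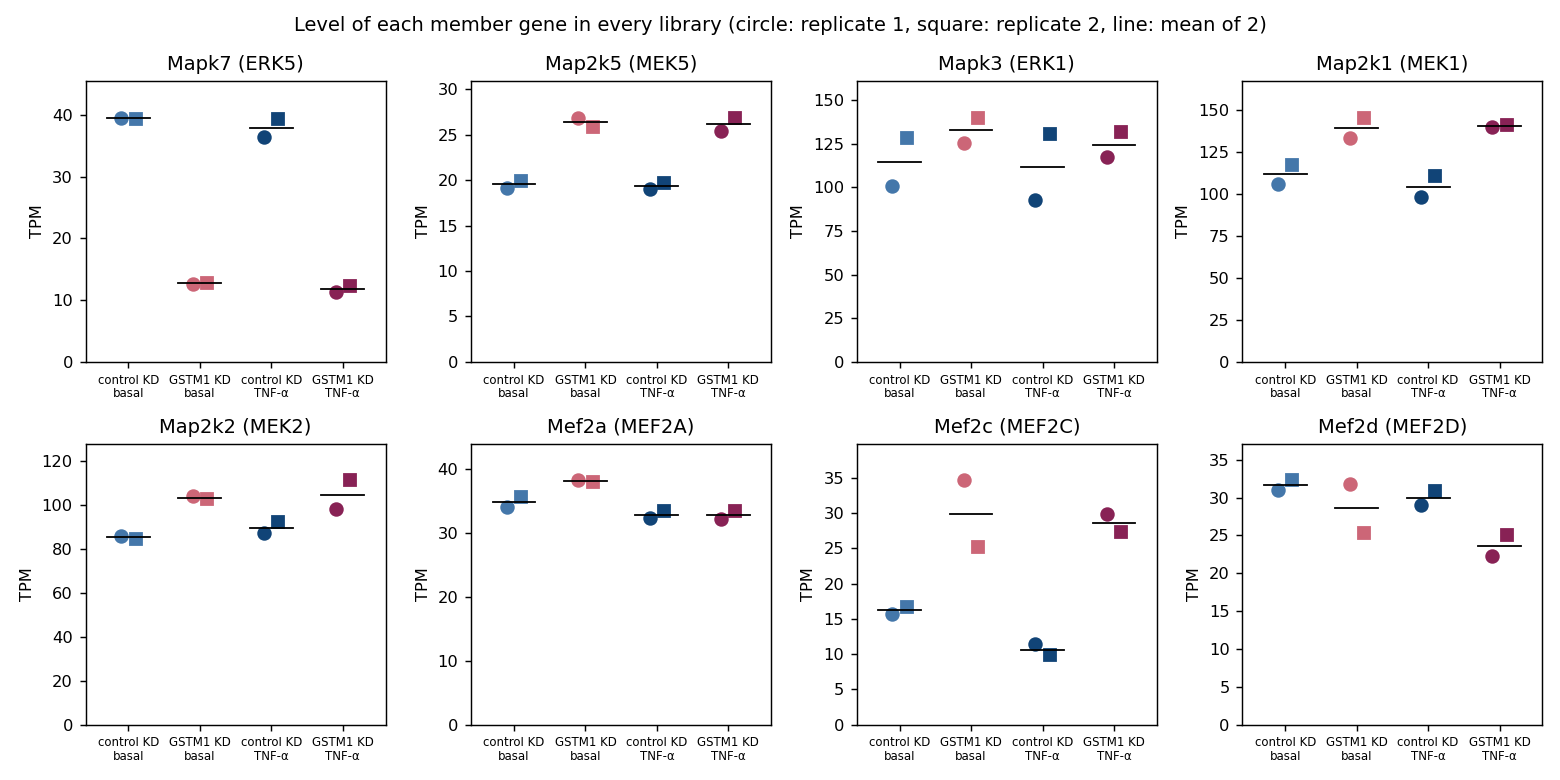
Level of each of the 8 genes in TPM (vertical axis, from 0) in the 2 libraries of each group (circle: replicate 1; square: replicate 2; line: mean). Mapk7 lay at 11.2 to 12.9 TPM in the 4 GSTM1 KD libraries and at 36.4 to 39.5 TPM in the 4 control KD libraries, while Mef2c lay higher in GSTM1 KD.

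The sequences just upstream of the annotated starts of Mapk7, of its activator gene Map2k5 and of Mef2c are shown because these genes had the largest differences among the members of the ERK5 route. They are RefSeq sequence of GRCm38.p6 and run 5′ to 3′ on the strand of the gene, from chr11:61494407-61494516 (minus strand) for Mapk7, chr9:63377903-63378152 (minus strand) for Map2k5 and chr13:83503784-83504033 (plus strand) for the first annotated start of Mef2c. Capitals mark a GC box, GGGCGG on either strand.
Mapk7: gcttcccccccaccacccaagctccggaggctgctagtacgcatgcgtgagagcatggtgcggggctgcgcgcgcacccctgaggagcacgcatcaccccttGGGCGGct
Map2k5: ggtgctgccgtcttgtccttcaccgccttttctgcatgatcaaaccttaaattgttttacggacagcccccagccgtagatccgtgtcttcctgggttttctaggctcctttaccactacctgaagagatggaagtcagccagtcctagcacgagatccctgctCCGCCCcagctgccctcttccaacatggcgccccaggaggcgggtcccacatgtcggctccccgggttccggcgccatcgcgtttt
Mef2c: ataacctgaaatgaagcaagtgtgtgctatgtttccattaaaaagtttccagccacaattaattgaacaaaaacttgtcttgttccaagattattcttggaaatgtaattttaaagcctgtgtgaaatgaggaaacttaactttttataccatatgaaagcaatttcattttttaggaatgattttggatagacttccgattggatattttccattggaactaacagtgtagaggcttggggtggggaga
The stretch upstream of Mapk7 was 70% G and C, that of Map2k5 58.4% and that of Mef2c 33.6%. Over full windows of 300 bases, it was 67.7% and 68.3% at the 2 starts of Mapk7, 59.7% for Map2k5 and 35.7% at the first start of Mef2c. The median over 32851 annotated promoter windows was 52.7%. In the full windows of 300 bases around the start, the letters GGGCGG occurred 3 times for Mapk7, once for Map2k5 and not at all at the first start of Mef2c, and 35.7% of all windows held them. A loose form of the MEF2 box, CTA and TAG with any 4 bases between, was searched. It was in the window of Mef2a and in none of the other member windows, and 3.69% of all windows held it. The AP-1 letters TGANTCA, held by 7.81% of windows, occurred only at the third start of Mef2c, and the CRE half-site TGACG, held by 20.8%, only in the window of Map2k1. All motifs were searched on both strands, and the matches describe letters and not binding.

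Map2k5 encodes MEK5, the kinase that activates ERK5, and lies on chr9:63163768-63377902 (minus strand). It stood at 19.2 and 19.9 TPM in control KD against 26.8 and 25.8 TPM in GSTM1 KD without TNF-α, and at 19.0 and 19.6 TPM against 25.4 and 26.9 TPM after TNF-α. Both GSTM1 KD libraries lay above both control KD libraries in each state, opposite to Mapk7. The log2 fold change was 0.38 ± 0.120 without TNF-α (95% interval 0.08 to 0.68) and 0.40 ± 0.116 after TNF-α (0.11 to 0.68), and neither passed edgeR's threshold on the 4 libraries of a state (adjusted p = 0.0989 and 0.0711). When all 8 libraries shared 1 estimate of the spread, both passed it (edgeR, adjusted p = 0.0338 and 0.0237), in a fit where 8.19% of genes without TNF-α and 10.2% after TNF-α passed as higher. The ratio of Mapk7 to Map2k5 TPM was 2.06 and 1.98 in control KD but 0.468 and 0.497 in GSTM1 KD without TNF-α. After TNF-α it was 1.91 and 2.00 against 0.443 and 0.455. In control KD there was more ERK5 than MEK5 messenger RNA in each library, and in GSTM1 KD less. Mapk7 was chosen as lower in GSTM1 KD, so this ratio is a description.

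**Figure D2:**
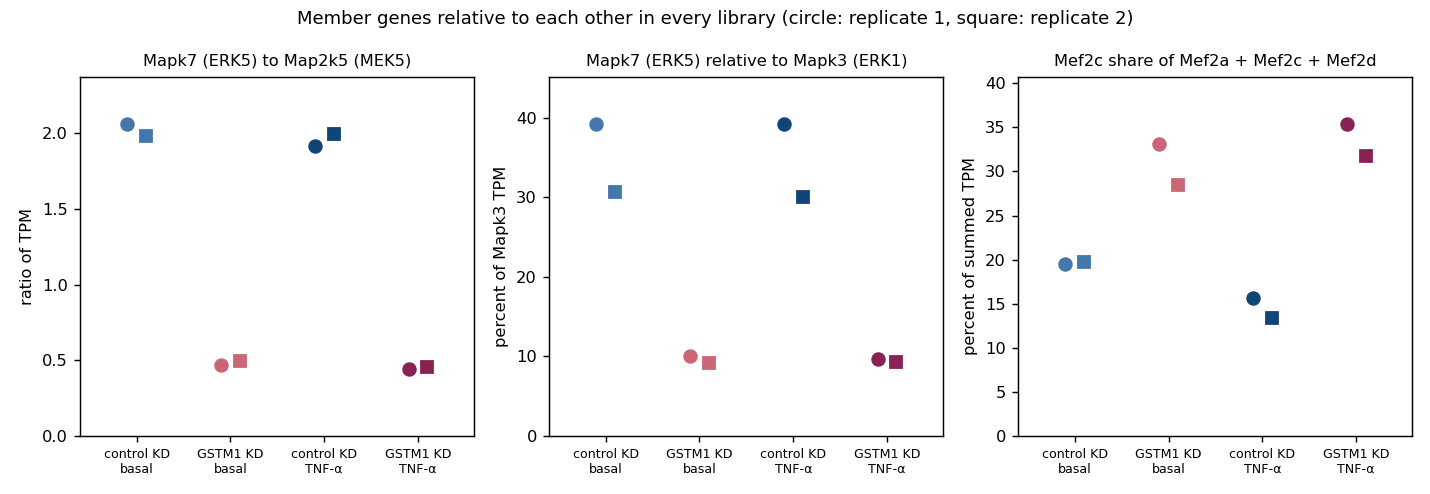
Ratios of TPM in each library (circle: replicate 1; square: replicate 2): Mapk7 to Map2k5, Mapk7 as a percent of Mapk3, and Mef2c as a percent of Mef2a, Mef2c and Mef2d together. The Mapk7 to Map2k5 ratio lay at 1.91 to 2.06 in control KD and 0.443 to 0.497 in GSTM1 KD, and the Mef2c share at 13.3% to 19.7% against 28.5% to 35.4%.

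Mapk3 encodes ERK1 and lies on chr7:126759601-126765819 (plus strand). Its level was 101 and 128 TPM in control KD and 125 and 140 TPM in GSTM1 KD without TNF-α, and 93.0 and 131 TPM against 117 and 131 TPM after TNF-α. The groups overlapped in both states, and the 2 control KD replicates lay far apart. The log2 fold change was 0.14 ± 0.147 without TNF-α (95% interval -0.22 to 0.51) and 0.08 ± 0.177 after TNF-α (-0.36 to 0.52), which did not pass edgeR's threshold (adjusted p = 0.543 and 0.784). Mapk7 stood at 30.0% to 39.2% of the Mapk3 level in the control KD libraries and at 9.19% to 10.02% in the GSTM1 KD libraries. This too is a description, since Mapk7 was chosen as lower in GSTM1 KD.

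Map2k1 and Map2k2 encode MEK1 and MEK2, the activators of ERK1/2. Map2k1, on chr9:64185770-64253631 (minus strand), stood at 106 and 117 TPM in control KD and 134 and 146 TPM in GSTM1 KD without TNF-α, and at 98.3 and 111 TPM against 140 and 141 TPM after TNF-α. Its groups did not overlap in either state. The log2 fold change of Map2k1 was 0.26 ± 0.113 without TNF-α (95% interval -0.02 to 0.54; edgeR, adjusted p = 0.182) and 0.36 ± 0.105 after TNF-α (0.10 to 0.62; adjusted p = 0.0724). It missed the threshold in both states on 4 libraries, and passed it after TNF-α in the edgeR fit of all 8 libraries (adjusted p = 0.0383). Map2k2, on chr10:81105915-81133975 (plus strand), stood at 85.8 and 84.7 TPM against 104 and 103 TPM without TNF-α, and at 87.1 and 92.2 TPM against 98.1 and 111 TPM after TNF-α. The GSTM1 KD libraries were again the higher ones, with log2 fold changes of 0.21 ± 0.0948 (95% interval -0.03 to 0.44; edgeR, adjusted p = 0.202) and 0.18 ± 0.0993 (-0.07 to 0.42; adjusted p = 0.257). The ratio of Map2k1 to Map2k2 TPM stayed between 1.13 and 1.43 over the 8 libraries.

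The MEF2 genes encode transcription factors that bind A and T rich sequences and that ERK5 phosphorylates. Mef2c, on chr13:83504034-83667080 (plus strand), rose in GSTM1 KD. It stood at 15.75 and 16.6 TPM in control KD and at 34.6 and 25.2 TPM in GSTM1 KD without TNF-α, from 732 to 1627 counts in a library. After TNF-α it stood at 11.4 and 9.86 TPM in control KD and at 29.8 and 27.3 TPM in GSTM1 KD, from 306 to 1265 counts. Each GSTM1 KD library lay above each control KD library. The log2 fold change was 0.90 ± 0.190 without TNF-α, a 1.87-fold difference (95% interval 0.43 to 1.37; edgeR, adjusted p = 0.0430), and 1.46 ± 0.134 after TNF-α, a 2.75-fold difference (1.12 to 1.79; adjusted p = 0.0105). Leaving out either GSTM1 KD replicate ended the call in unstimulated cells, with adjusted p up to 0.206, and leaving out GSTM1 KD replicate 1 ended it after TNF-α (edgeR, adjusted p = 0.0648), in fits that called at most 3 genes in all, and the log2 fold change stayed between 0.71 and 1.11 and between 1.35 and 1.59.

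Mef2c is also expressed in neurons, microglia and endothelial cells, so the markers of these cells are given beside it. The 8 microglia markers summed to 7 and 2.88 TPM in control KD and 2.22 and 1.52 TPM in GSTM1 KD without TNF-α, and to 6.63 and 2.16 against 4.16 and 1.98 TPM after TNF-α, with P2ry12 at 3 counts or fewer in every library. The 8 endothelial markers summed to 5.75 and 6.34 TPM against 3.18 and 4.07 TPM without TNF-α and to 6.89 and 8.27 TPM against 4.12 and 5.40 TPM after TNF-α, with Cldn5, Emcn and Tie1 at 3 counts or fewer everywhere. The microglia sums overlapped between the knockdowns after TNF-α. The 8 neuronal markers summed to 93.75 to 109 TPM in control KD and 91.0 to 138 TPM in GSTM1 KD over both states, and overlapped in each state, with Snap25 and Neurod6 at 3 counts or fewer everywhere. Nearly all of this neuronal sum was Stmn2, at 88.4 to 107 TPM in control KD and 85.8 to 135 TPM in GSTM1 KD. The 9 markers of mural cells and fibroblasts summed to 3079 to 4007 TPM in control KD and 1620 to 2196 TPM in GSTM1 KD. Most of this sum was Acta2, at 3016 to 3935 TPM and 1516 to 2113 TPM. By edgeR, 0 of 8 tested passed as higher and 1 as lower without TNF-α, and 1 and 1 after it. The higher one was Pdgfrb (log2 fold change 0.81 ± 0.165 after TNF-α; edgeR, adjusted p = 0.0337). Rgs5, at most 1.65 TPM in a library, had log2 fold changes of 1.64 without TNF-α and 1.55 after it and did not pass. The 10 astrocyte markers summed to 1793 and 4129 TPM against 4131 and 6236 TPM without TNF-α and to 1772 and 3942 TPM against 3913 and 5945 TPM after TNF-α. The 8 oligodendrocyte lineage markers summed to 533 and 596 TPM against 441 and 423 TPM without TNF-α. After TNF-α they summed to 448 and 479 TPM against 352 and 340 TPM. Most of this sum was Olig1, at 354 to 463 TPM in control KD and 271 to 362 TPM in GSTM1 KD, followed by Olig2. Sox10 was at most 0.24 TPM and Mbp at most 0.43 TPM in a library. The 5 ependymal and choroid markers summed to 76.3 and 118 TPM against 104 and 118 TPM without TNF-α. After TNF-α they summed to 65.1 and 77.4 TPM against 93.5 and 104 TPM. Of the single markers, S100b, Olig2 and Acta2 fell and Folr1 rose in GSTM1 KD in both states by edgeR. S100b was the only astrocyte marker that edgeR called. Gfap, Aldoc, Aldh1l1, Glul, Slc1a2 and Gja1 had positive log2 fold changes in both states. Those of Gfap were 1.10 without TNF-α and 1.08 after it. DESeq2 called Glul as higher in both states (adjusted p = 0.00931 and 0.00225) and S100b as lower. Sox9 and Aqp4 were negative in both states, and Slc1a3 changed sign. Olig1 passed as lower after TNF-α (edgeR, adjusted p = 0.0497). The part of these shifts in the values of Mef2c, Mapk7 and the other members was not tested.

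Mef2a, on chr7:67231163-67372858 (minus strand), was the MEF2 gene with the smallest log2 fold changes of counts between GSTM1 KD and control KD. It stood at 33.9 and 35.5 TPM in control KD and 38.15 and 37.8 TPM in GSTM1 KD without TNF-α, and at 32.2 and 33.3 TPM against 32.1 and 33.4 TPM after TNF-α. Its log2 fold changes were 0.04 ± 0.0963 (95% interval -0.20 to 0.28; edgeR, adjusted p = 0.816) and -0.01 ± 0.0888 (-0.23 to 0.21; adjusted p = 0.958). Mef2a shares 302 exonic bases with Lysmd4 on the other strand. Mef2d, on chr3:88142372-88172086 (plus strand), stood at 31.1 and 32.3 TPM against 31.8 and 25.4 TPM without TNF-α, and at 29.1 and 30.8 TPM against 22.3 and 25.0 TPM after TNF-α. Its GSTM1 KD libraries were the lower ones after TNF-α, with a log2 fold change of -0.30 ± 0.112 (95% interval -0.57 to -0.02; edgeR, adjusted p = 0.122), and -0.16 ± 0.121 without TNF-α (-0.46 to 0.14; adjusted p = 0.412). Mef2d shares 531 exonic bases with an antisense transcript, so reads of the pair cannot be told apart if the counting ignored the strand. Of the summed Mef2a, Mef2c and Mef2d TPM, Mef2c made up 19.5% and 19.7% in control KD but 33.1% and 28.5% in GSTM1 KD without TNF-α. After TNF-α its share was 15.7% and 13.3% against 35.4% and 31.8%, so in each state both GSTM1 KD libraries exceeded both control KD libraries. Mef2b, the remaining family gene, was near the limit of counting, with 7 to 30 counts in a library.

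**Figure D3:**
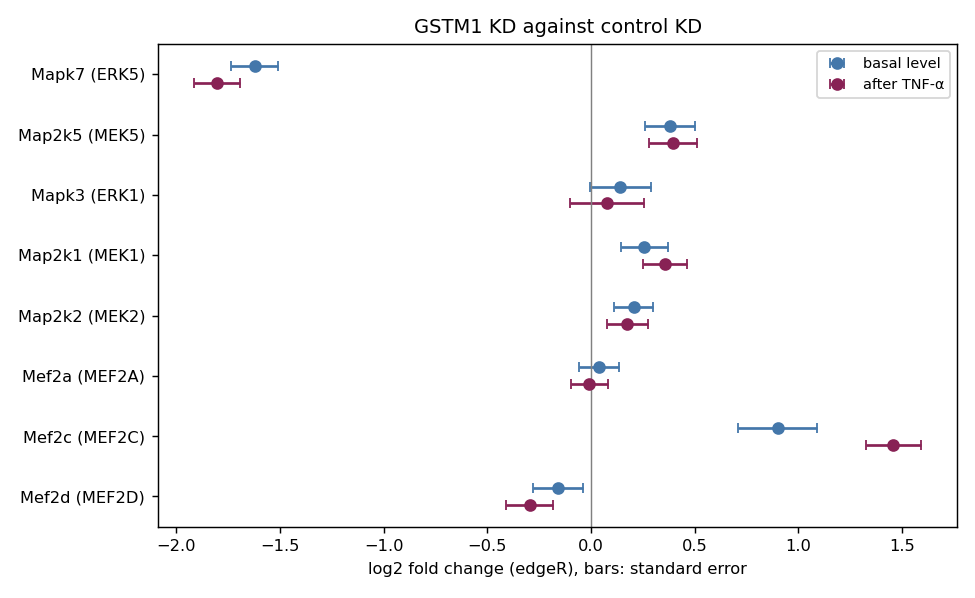
Log2 fold change of GSTM1 KD against control KD for the 8 genes (points; horizontal axis, negative is lower in GSTM1 KD; bars: standard error from edgeR), without and with TNF-α. Mapk7, chosen for this difference, lay at -1.62 and -1.80, Mef2c at 0.90 and 1.46, and the other 6 between -0.30 and 0.40.

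Of the 7 members other than Mapk7, 1 passed the threshold as higher and 0 as lower without TNF-α, where 4.6% of all genes tested passed as higher, and 1 and 0 after TNF-α, where 7.26% did. By edgeR without adjustment, 2 of the 7 had p under 0.05 without TNF-α and 4 after TNF-α, against 31.6% and 36.2% of all genes tested. By CPM, the libraries of GSTM1 KD and control KD did not overlap for 5 of the 7 as higher and 1 as lower without TNF-α, and for 4 and 1 after TNF-α. With 2 libraries a group this is common, since 32.3% of all genes did not overlap as higher and 31.2% as lower without TNF-α, and 34.7% and 31.9% after TNF-α. The order of the 8 genes by TPM differed between the knockdowns. In control KD the order from high to low was Mapk3, Map2k1, Map2k2, Mapk7, Mef2a, Mef2d, Map2k5 and Mef2c in both states, and only Mapk3 and Map2k1 overlapped as neighbours. In GSTM1 KD without TNF-α Mapk7, which was chosen as lower in GSTM1 KD, was the lowest of the 8. Mef2c, Mef2d and Map2k5 overlapped with each other there, with Mef2c above both in replicate 1 and below both in replicate 2, and Mapk3 overlapped with Map2k1. After TNF-α the GSTM1 KD order was Map2k1, Mapk3, Map2k2, Mef2a, Mef2c, Map2k5, Mef2d and Mapk7, and no neighbours overlapped.

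The response to 6 h of TNF-α was compared with the basal level within each knockdown, a contrast that was not used to choose Mapk7. In control KD the log2 fold change of Mapk7 was 0.04 ± 0.0870 (95% interval -0.16 to 0.24; edgeR, adjusted p = 0.971), and its libraries overlapped between the states by CPM. In GSTM1 KD it was -0.12 ± 0.0920 (-0.33 to 0.10; adjusted p = 0.857), and both stimulated libraries lay below both basal ones. Neither interval held a change near the size of the knockdown difference. The members passed the threshold 0 times in either direction in control KD, where 2.1% of 15332 genes passed as higher and 0.528% as lower, and 0 times in GSTM1 KD, where 2.35% passed as higher and 0.294% as lower. At an unadjusted edgeR p under 0.05 there was 1 member of 8 in control KD, Mef2c, and 0 in GSTM1 KD, against 12.5% and 10.9% of all genes, and DESeq2 called the same numbers of members. By CPM, both stimulated libraries lay below both basal ones for 2 of the 8 members in control KD and 3 in GSTM1 KD, as they did for 18.3% and 22.2% of all genes.

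In control KD the Mef2c level was 15.75 and 16.6 TPM before and 11.4 and 9.86 TPM after TNF-α, so both stimulated libraries lay below both basal ones. Its log2 fold change was -0.73 ± 0.180 (95% interval -1.15 to -0.30; edgeR, unadjusted p = 0.00475, adjusted p = 0.104). DESeq2 put it past the threshold (adjusted p = 0.0155), in a test where 1.19% of 16208 genes passed as lower. It also passed by edgeR with a block for the replicate number, where 336 of 15332 genes passed as lower. The labels do not say what that number marks. In GSTM1 KD the Mef2c libraries overlapped between 29.8 and 27.3 TPM after TNF-α and 34.6 and 25.2 TPM before, with a log2 fold change of -0.14 ± 0.175 (-0.55 to 0.27; adjusted p = 0.980). The difference between the responses of Mef2c was 0.58 ± 0.251 (-0.01 to 1.17; edgeR, unadjusted p = 0.0522, adjusted p = 1). For Mapk7 the difference between the responses was -0.16 ± 0.127 (-0.45 to 0.14; edgeR, adjusted p = 1). By edgeR 0% of 15332 genes passed this test of the difference, 295 had an unadjusted p under 0.05, and DESeq2 called 27. For the other 6 members the responses lay between -0.19 and 0.06 on the log2 scale in both knockdowns.

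**Figure D4:**
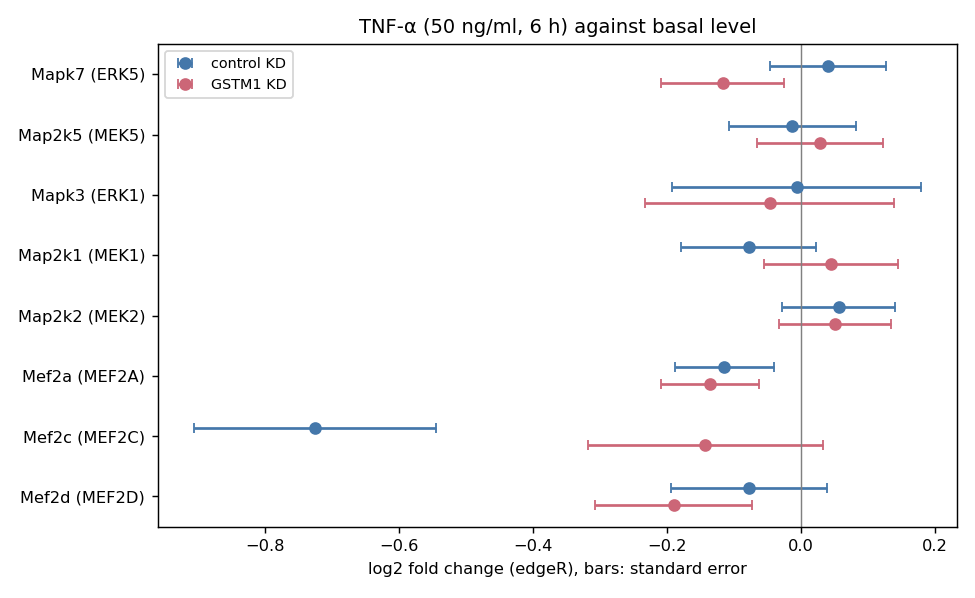
Log2 fold change of TNF-α (50 ng/ml, 6 h) against the basal level in control KD and in GSTM1 KD for the 8 genes (points; bars: standard error from edgeR; negative is lower after TNF-α). Mef2c in control KD lay at -0.73, and all other values lay between -0.19 and 0.06.

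Genes upstream and downstream of the members were counted from lists of the RAS, ERK1/2, ERK5 and MEF2 pathways. Of the 94 listed genes other than the members that were tested without TNF-α, 7 were higher in GSTM1 KD by edgeR, 13 lower and 74 did not pass. Of 93 tested after TNF-α, 9 were higher, 20 lower and 64 did not pass. Over all genes tested, edgeR called 4.6% as higher and 5.62% as lower without TNF-α, and 7.26% and 8.92% after it. DESeq2 called 11 of the listed genes as higher and 16 as lower without TNF-α, and 9 and 23 after it. Over all genes DESeq2 called 1115 as higher and 1377 as lower of 13695 tested without TNF-α. After TNF-α it called 1292 and 1532 of 13840. Their median log2 fold change was -0.02 without TNF-α and -0.08 after TNF-α, against -0.00 and -0.01 over all genes tested. Of these genes 19 passed in both states, each with the same sign, 7 as higher and 12 as lower, out of 93 tested in both. Over all genes, 3.73% of 14379 passed in both as higher and 4.97% as lower, and 1251 of the 1252 that passed in both had the same sign. The lists were chosen with earlier results of these data known, so the counts of listed genes are a description. The 2 comparisons use different libraries, and the same 2 knockdowns.

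Nras, a RAS gene, stood at 89.6 and 107 TPM in control KD against 51.2 and 44.8 TPM in GSTM1 KD without TNF-α, and its log2 fold change was -1.17 ± 0.129 there and -1.05 ± 0.118 after TNF-α (edgeR, adjusted p = 0.0161 and 0.0119). Log2 fold changes that did not pass in either state were, in the basal state, -0.05 for the RAS gene Hras and 0.01 and 0.15 for the RAF kinase genes Araf and Braf. Of 11 adaptors and exchange factors that link receptors to RAS, Gab2, Shc1 and Sos1 fell in both states by edgeR and Grb2 after TNF-α. All of these calls also passed by DESeq2 except that of Sos1 after TNF-α (adjusted p = 0.0503). The largest of these falls was that of Gab2, an adaptor that binds GRB2, at 22.2 and 17.9 TPM in control KD against 5.13 and 4.66 TPM in GSTM1 KD without TNF-α, with log2 fold changes of -2.04 ± 0.182 and -1.79 ± 0.147 (edgeR, adjusted p = 0.0132 and 0.00981).

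Among 16 measured inhibitors of the RAS and ERK route, 1 was higher and 2 were lower without TNF-α, and 1 and 4 after TNF-α. Rasal2, a RAS GTPase-activating protein gene, rose with log2 fold changes of 0.80 ± 0.144 and 0.72 ± 0.115, and Rasa2, of the same class, fell by 0.78 and 0.86. Spry1, a feedback inhibitor of receptor signalling, fell by 0.91 ± 0.117 without TNF-α and by 1.54 ± 0.154 after TNF-α (edgeR, adjusted p = 0.0194 and 0.0109). Dusp7 and Dusp9, which encode ERK phosphatases, passed after TNF-α and not without it by edgeR. Dusp7 had log2 fold changes of -1.04 ± 0.114 with TNF-α and -0.19 ± 0.112 without it. After TNF-α, the control KD libraries held 20 and 12 counts of Dusp9, and the GSTM1 KD libraries held 2 and 3, at or under the floor of 3 counts, so its fold is not given. Of the scaffold genes, 0 of 12 passed without TNF-α and 0 of 11 after it by edgeR, with 3 and 0 at an unadjusted p under 0.05 and 0 by DESeq2 in each state. Among the 13 kinases and transcription factors that ERK1/2 acts on, Mknk2, Ets2 and Rps6ka4 passed as higher and Rps6ka1 and Ets1 as lower in both states by edgeR, all but Rps6ka4 after TNF-α also by DESeq2 (adjusted p = 0.0634). Rps6ka1, which encodes the ribosomal S6 kinase RSK1, changed by -1.45 ± 0.224 and -1.76 ± 0.207 (edgeR, adjusted p = 0.0251 and 0.0124), and Ets2 by 1.03 ± 0.132 and 0.86 ± 0.117 (adjusted p = 0.0194 and 0.0157). Rps6ka2 passed as higher and Srf as lower after TNF-α and not without it, by edgeR. Of 10 genes commonly transcribed in response to ERK activity, Epha4 rose, by 0.64 ± 0.104 and 0.50 ± 0.0981, and the other 9 did not pass in either state by edgeR, with Dusp6 at 0.12 ± 0.151 and -0.10 ± 0.208. DESeq2 called 2 of the 10 as higher and 1 as lower without TNF-α, and 2 and 2 after TNF-α, among them Etv4 as higher and Phlda1 as lower in both states.

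In the ERK5 module outside Mapk7, edgeR called 1 of 10 genes as lower in unstimulated cells and 2 after TNF-α, against 5.62% and 8.92% of all genes tested. Sgk1, a kinase gene placed downstream of ERK5, stood at 160 and 120 TPM in control KD against 62.1 and 68.7 TPM in GSTM1 KD without TNF-α, and fell by 1.16 ± 0.168 and 1.03 ± 0.248 on the log2 scale (edgeR, adjusted p = 0.0228 and 0.0463). Map3k3 encodes MEKK3, which activates MEK5. It stood at 22.0 and 23.1 TPM in control KD and 10.9 and 13.2 TPM in GSTM1 KD after TNF-α, with a log2 fold change of -1.01 ± 0.118 (edgeR, adjusted p = 0.0122), and -0.41 ± 0.122 without TNF-α (adjusted p = 0.0866). Map3k2, the gene for the related MEKK2, was at 0.07 ± 0.102 and 0.05 ± 0.0955. The other listed ERK5 partners did not pass by edgeR in either state. Their log2 fold changes were 0.46 and 0.37 for Prkci, 0.01 and -0.41 for Prkcz, -0.31 and -0.43 for Sqstm1, -0.20 and -0.37 for Cdc37, 0.09 and 0.04 for Hsp90ab1 and -0.15 and -0.41 for Trp53inp2, without and with TNF-α. DESeq2 called Prkci as higher without TNF-α (adjusted p = 0.0263) and Sqstm1 as lower with it (adjusted p = 0.0108). The median over the 10 genes was -0.07 without TNF-α and -0.39 with it.

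Of 9 repressors and coactivators of MEF2, the class IIa histone deacetylase genes Hdac9 and Hdac5 rose in both states and Carm1 fell in both, with Ep300 lower after TNF-α, by edgeR. Class IIa deacetylases bind MEF2 proteins and repress their targets. Hdac9 stood at 7.49 and 6.46 TPM in control KD against 15.97 and 16.7 TPM in GSTM1 KD without TNF-α and at 4.87 and 5.34 against 15.2 and 15.7 TPM after TNF-α, with log2 fold changes of 1.24 ± 0.138 and 1.54 ± 0.136 (edgeR, adjusted p = 0.0161 and 0.0101). Hdac5 rose by 0.87 ± 0.159 and 0.97 ± 0.233. The other listed class IIa genes did not pass by edgeR or DESeq2, with log2 fold changes of 0.34 ± 0.143 and 0.16 ± 0.113 for Hdac4 and -0.27 ± 0.133 and -0.28 ± 0.155 for Hdac7. Of 10 genes listed as targets of ERK5 and MEF2, 0 were higher and 2 lower without TNF-α by edgeR (2 and 4 by DESeq2), and 1 was higher and 3 lower after TNF-α (1 and 5 by DESeq2). Klf4, a transcription factor gene induced by ERK5 in endothelial cells, fell in both states, by 1.63 ± 0.266 and 1.42 ± 0.241 (edgeR, adjusted p = 0.0270 and 0.0229), and Klf2, the related gene, was at -0.18 ± 0.396 and -0.23 ± 0.361. By edgeR, Nr4a1 passed as lower without TNF-α, and Klf6 and Thbd as lower and Jun as higher after TNF-α. DESeq2 called these 4 genes in both states. The difference between the states was tested by the difference of responses, where edgeR called 0 genes and DESeq2 called 1 of the listed genes, Dusp7.

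**Figure D5:**
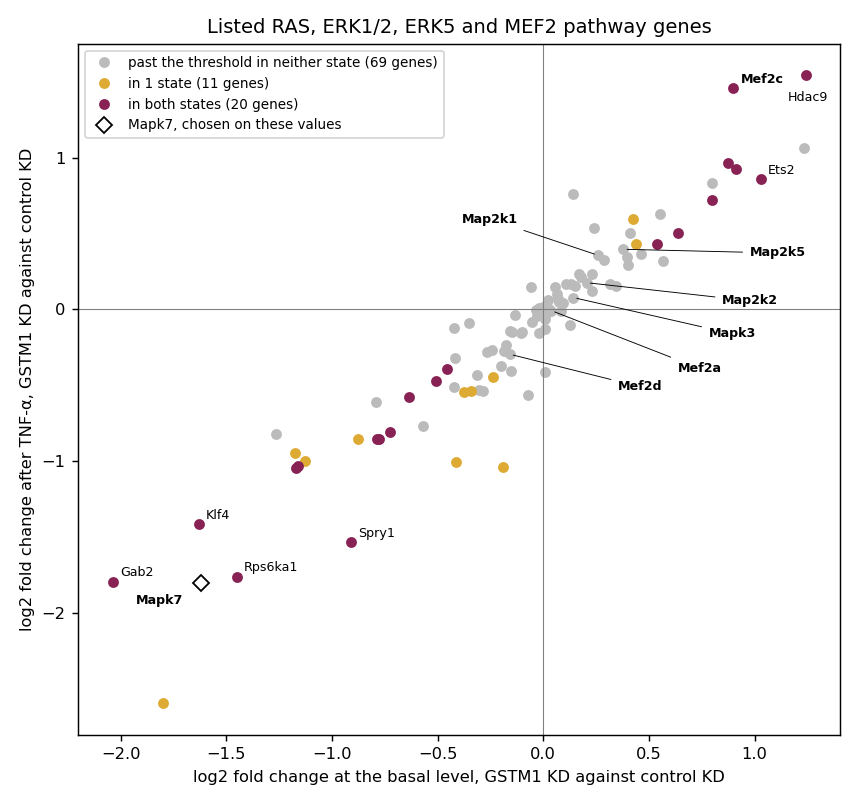
Log2 fold change of GSTM1 KD against control KD without TNF-α (horizontal axis) and after TNF-α (vertical axis) for 101 listed genes tested in both states, members in bold, coloured by the states in which edgeR's adjusted p was below 0.05. Apart from Mapk7, the 20 genes past the threshold in both states lay in the upper right (8) or lower left (12). Mapk7 (open diamond) was chosen on these values and is not counted. The lowest point is Dusp9, whose fitted value rests on counts at or under the floor after TNF-α.

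Within the responses to TNF-α, 3 of the 94 listed genes outside the members rose in control KD by edgeR (Ets1, Dusp7 and Sqstm1) and 2 rose in GSTM1 KD (Ets1 and Sqstm1), near the 2.1% and 2.35% of all genes that passed as higher. DESeq2 called 5 as higher and 5 as lower in control KD. In GSTM1 KD it called 4 as higher and 4 as lower. Ets1, an ERK-regulated transcription factor gene, changed by 1.00 ± 0.113 in control KD and 0.96 ± 0.115 in GSTM1 KD (edgeR, adjusted p = 0.00709 and 0.00621). Sqstm1, which encodes the ERK5-binding adaptor p62, changed by 0.78 ± 0.0993 and 0.68 ± 0.0993 (edgeR, adjusted p = 0.0101 and 0.0148). Spry1 fell in GSTM1 KD, by 0.93 ± 0.125. The responses of Dusp7 were 0.80 ± 0.0933 and -0.02 ± 0.0946, and their difference did not pass by edgeR (unadjusted p = 0.000399, adjusted p = 1) but passed by DESeq2 (adjusted p = 0.0179).

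The genes whose pattern was most like that of Mapk7 were ranked by Pearson's r of log2 CPM over the 8 libraries among 11431 genes with at least 100 counts on average. The 5 highest were Rab7 (r = 0.998), a late endosome GTPase gene, Proser1 (0.998), Itsn2 (0.998), an endocytic scaffold gene, Zdhhc8 (0.997), a palmitoyltransferase gene, and Vipas39 (0.997). Each was lower in the 4 GSTM1 KD libraries than in the 4 control KD libraries, as Rab7 was at 199 to 206 CPM against 348 to 376 CPM. The libraries fall into 2 sets by knockdown, so any gene with a steady difference scores high, and 595 genes had an r above 0.95. Among the members, r with Mapk7 was -0.99 for Map2k5, -0.91 for Map2k1, -0.90 for Mef2c, -0.89 for Map2k2, -0.37 for Mapk3, -0.17 for Mef2a and 0.72 for Mef2d, over the same 8 libraries.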

How the data were processed

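RNA-seq was performed by the authors on 8 libraries of astrocyte cultures, which the labels placed in 4 groups of 2. Per the labels and the study's methods, strand-specific libraries were mapped to GRCm38 with STAR (version 2.5.4b) and quantified with RSEM (version 1.3.0). For each gene the authors deposited an expected count, an RSEM estimate with no normalization. The deposited TPM values were scaled by the authors for transcript length and library total, and were used for levels only. The deposited effective lengths served in an alternative as offsets. Strand use in counting is not given in the sources used here.

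Expected counts were rounded and tested with edgeR (version 4.0.16, R version 4.3.3), using TMM factors, filterByExpr by group, the quasi-likelihood F-test and Benjamini-Hochberg adjustment over all genes tested at 0.05. GSTM1 KD and control KD were compared on the 4 libraries of a state, and responses to TNF-α and their difference on all 8. Standard errors and 95% intervals came from the fitted model. Counts of replicates varied 13.8 to 55.4 times as much as sampling would give. A count of 3 was taken as the floor, which is 0.0848 to 0.180 CPM and covers counting error only. Positions and overlaps were read from GENCODE M21, in which 52480 of 54146 versioned gene identifiers were found. RefSeq promoter windows matched 7 of the 8 members. The procedure was tested on simulated data. Alternatives were DESeq2 (version 1.42.0), other scaling and filters, effective length offsets, a replicate block, other sets of libraries and leaving out each replicate. Figures were drawn with matplotlib (version 3.10.9). Genes named are the members, the listed pathway genes past the threshold (up to 12 a list), the core genes of each module, and the 5 genes most like Mapk7. The members and lists were chosen with earlier results of these data known. Some single genes of the lists are not reported.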

Additional observations from a re-analysis of the deposited data

How the results depend on the processing

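In GSTM1 KD against control KD, the members past the threshold other than Mapk7 numbered 1 in each state. At the basal level it was 2 in the edgeR fit of all 8 libraries and 2 with DESeq2 on all 8 libraries, the latter chosen after seeing the data, and between 0 and 1 when each replicate was left out, with 0 without either GSTM1 KD replicate. After TNF-α it was 2 with library size only, 2 with no filter, 2 with a replicate block, 3 in the fit of all 8 libraries and 3 with DESeq2 on all 8 libraries, and between 0 and 4 when each replicate was left out, with 0 without GSTM1 KD replicate 1, and 2 or 4 when replicate 1 or replicate 2 of control KD was omitted. A fit that leaves 1 library in a group assumes that it varies like the others. For the TNF-α response in control KD the count was 0, and 1 with DESeq2, with no filter and with a replicate block, each time Mef2c (log2 fold change -0.72 and adjusted p = 0.00681 by edgeR with the block). Mef2c kept its sign between GSTM1 KD and control KD in every alternative run. The cause of these shifts was not tested.

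With all replicates kept, the following signs turned. For GSTM1 KD against control KD after TNF-α, Mef2a was 0.00047 with DESeq2's size factors, 0.027 with library size only, 0.0093 with at least 10 counts in every library and 0.017 in the fit of all 8 libraries. For the response in control KD, Mapk3 was 0.0016 with DESeq2 and 0.0089 with at least 10 counts in every library, Map2k5 was 0.0033 with that filter and 0.0092 with effective length offsets, and Mapk7 was -0.037 with the offsets. For the response in GSTM1 KD, Map2k5 was -0.017 with library size only, and the difference of responses of Map2k2 was 0.0049 with no filter.

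When each replicate was left out, log2 fold changes that turned ran from -0.021 to 0.31 for Mapk3 in GSTM1 KD against control KD at the basal level. They ran from -0.16 to 0.36 for Mapk3, from -0.032 to 0.023 for Mef2a in the same contrast after TNF-α. They ran from -0.048 to 0.033 for Map2k5, from -0.27 to 0.23 for Mapk3, from -0.16 to 0.011 for Map2k1, from -0.18 to 0.026 for Mef2d in the response in control KD. They ran from -0.12 to 0.034 for Mapk3, from -0.010 to 0.11 for Map2k1, from -0.019 to 0.12 for Map2k2, from -0.31 to 0.057 for Mef2c in the response in GSTM1 KD. They ran from -0.0059 to 0.076 for Map2k5, from -0.27 to 0.23 for Mapk3, from -0.084 to 0.060 for Map2k2, from -0.054 to 0.0061 for Mef2a, from -0.24 to 0.024 for Mef2d in the difference of responses.

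Over all genes, the count past the threshold was 1524 at the basal level and 2492 with DESeq2, 2762 in the fit of all 8 libraries, 3195 with DESeq2 on all 8 libraries, 3957 with no filter and 4712 with a replicate block, and between 1 and 5256 when each replicate was left out. After TNF-α it was 2360, and 4540 with no filter and 4302 with the block, and between 0 and 5028 when each replicate was left out. The response in control KD gave 403, and 742 with DESeq2, 1255 with no filter, 988 with the block and 72 on 4 libraries. In GSTM1 KD it gave 406, and 630, 1050, 808 and 691. Leaving out each replicate gave 180 to 313 in control KD and 74 to 255 in GSTM1 KD. The difference gave 0, and 27 with DESeq2 and 134 with no filter. The labels do not say what a replicate number marks. Deviations of same-numbered libraries correlated between groups at r from 0.155 to 0.536 across genes, so the pairing is a hint from the data only.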
